A study of Mus musculus with 2 samples.

Results

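The 10 genes described here encode enzymes that build purine and pyrimidine nucleotides from small precursors: Ppat, Gart, Pfas, Paics, Adsl, Atic and Impdh2 on the purine side, and Cad, Dhodh and Umps on the pyrimidine side. They were taken by name from a 2-colour Agilent mouse array, on which all 10 were present with 13 of the 39429 probes, every one of them matched through its RefSeq accession. A probe named Asl, which is also an old synonym of Adsl, carried the accession of another gene and was left out. Of the 10 genes, 9 were measured, meaning that the brightest probe of a gene cleared background in the same RNA, KO or WT, on each array. Over the whole array 14871 of 31709 gene or transcript names met that condition.

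Each array set RNA of CD4+ T cells that lack Lamtor1 (KO) beside RNA of WT CD4+ T cells, with both genotypes on C57BL/6J. Lamtor1 is a subunit of Ragulator, the complex that anchors the growth kinase complex mTORC1 to the lysosome, and the series title places the question in autoimmunity driven by CD4+ T cells. Cells of both genotypes had been sorted magnetically as CD4+CD62L+ naive cells from spleen and cultured for 5 days on plate-bound antibody to CD3 with antibody to CD28, recombinant human TGFβ (1 ng/ml) and IL-2 (50 ng/ml). The extraction text in the labels speaks of naive cells, so whether the RNA came from the cultured cells is taken here but not settled. On the first array Cy5 marked KO and Cy3 marked WT, and on the second the dyes were swapped. The labels name both arrays as the same biological replicate, so there was 1 extract per genotype. The sources used here do not give how the deletion was made, how many animals were pooled or the age of the mice.

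Purines are assembled stepwise on phosphoribosyl pyrophosphate (PRPP) until the common product IMP is reached, which is then turned into AMP or GMP. Pyrimidines are first built as a ring and then joined to PRPP to give UMP. Resting T cells rely largely on salvage of preformed bases, whereas activated T cells raise de novo synthesis to make RNA and DNA. mTORC1 is known to promote both arms, through phosphorylation of CAD by S6 kinase and through Atf4-driven expression of the mitochondrial folate enzyme Mthfd2, and Myc is known to bind several of these genes.

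The probes are 60-base oligonucleotides, and 4 of the 13 are shown because the readings below turn on them: the Cad probe was too dim to measure, the Adsl probe gave the highest ratio of the measured enzymes, the Gart probe changed sign between the arrays, and the Ppat probe is the brighter of a pair for that gene. Each is written 5′ to 3′ in lower case as in the scanner files.
Cad: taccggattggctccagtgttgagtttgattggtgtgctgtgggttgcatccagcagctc
Adsl: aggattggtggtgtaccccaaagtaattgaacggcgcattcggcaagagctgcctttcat
Gart: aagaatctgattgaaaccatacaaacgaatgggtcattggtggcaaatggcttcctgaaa
Ppat: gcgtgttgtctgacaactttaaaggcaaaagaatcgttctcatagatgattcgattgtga
In the files' build, mm9, the Cad probe lies at chr5:31369954-31370013 on the plus strand. The Gart probe lies at chr16:91624630-91624689 and the Ppat probe at chr5:77347115-77347174, both on the minus strand. The Adsl probe spans 989 bases of the genome at chr15:80796591-80797579, so that it crosses at least 1 intron. Exon and UTR annotation of this build was not used here.

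None of the measured enzymes reached a 2-fold difference between the genotypes, and most stood modestly lower in the KO extract. A gene was called when it was at least 2-fold apart in the same direction on each array. By that rule 0 of the 9 measured enzymes were higher and 0 lower, against 2.45% and 6.89% of all measured genes, or 9.34% in either direction. With only 9 genes, a count of 0 is close to these shares. Of the 9, 6 lay below 0 on both arrays, 2 above 0 on both, and 1 changed sign. Of all 14871 measured genes, 44.3% lay below 0 on both arrays. The median log2 ratio of the 9 enzymes, KO over WT, was −0.48, beside −0.02 for all measured genes. No test was possible over single extracts, and the ± given below is the technical SD of the arrays, whose median over all measured genes was 0.11.

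**Figure D1:**
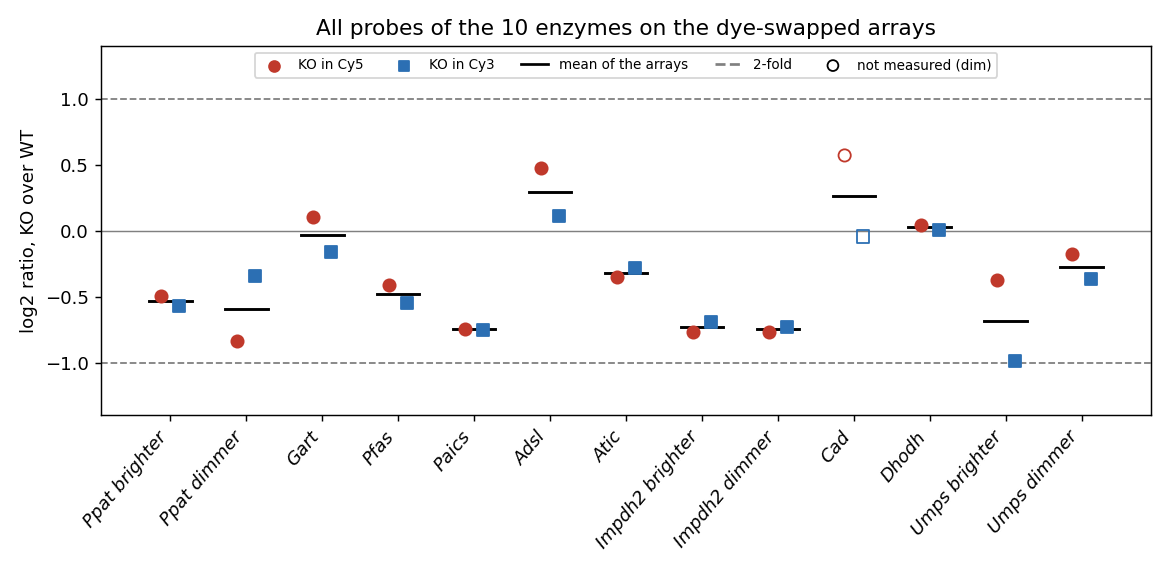
Log2 ratio KO over WT of all 13 probes of the enzymes, with KO in Cy5 (circles), KO in Cy3 (squares) and the mean of both arrays (bars); dashed lines mark 2-fold and open symbols a probe that was not measured. The probes of Paics and Impdh2 lie between −0.77 and −0.69 on both arrays, Adsl lies above 0, and no probe passes a dashed line.

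Among the enzymes from PRPP to IMP, Ppat, which catalyses the committed first step by placing an amino group on PRPP, stood at −0.50 on the first array and −0.57 on the second. The mean was −0.53 ± 0.05, which is 1.45-fold lower in KO. The dimmer Ppat probe, at chr5:77342626-77342685, gave −0.84 and −0.35, with a mean of −0.59 ± 0.35. Both probes of Ppat were thus below 0 on each array, but the dimmer one was less repeatable.

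Gart, a trifunctional enzyme of several early steps, showed no direction, with 0.10 and −0.16 (mean −0.03 ± 0.19). Pfas, which adds the next glutamine-derived nitrogen, stood at −0.42 and −0.55 (mean −0.48 ± 0.09). Its probe lies at chr11:68799330-68799389. The Pfas spot was dim, with mean signals of 142 for KO and 161 for WT on the first array and 94.6 and 278 on the second, over local backgrounds of 34 to 41.5, and the software's processed signals put its mean ratio at −0.74.

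Paics, a bifunctional carboxylase and ligase in the middle of the pathway, had the lowest mean ratio of the measured enzymes, but was lowest on neither array. Impdh2 was lower on the first, at −0.77, and Umps on the second, at −0.99. The scanner signals of Paics were 920.3 for KO and 1228 for WT on the first array, and 456 for KO and 2351 for WT on the second. After dye normalization the ratios were −0.74 and −0.76, with a mean of −0.75 ± 0.01, or 1.68-fold lower in KO. Of all measured genes, 16.8% lay farther from 0 than Paics. Its probe lies at chr5:77396219-77396278 on the plus strand.

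Adsl, a lyase used both on the way to IMP and from IMP to AMP, was the measured enzyme with the highest ratio. Signals were 686 for KO and 391 for WT on the first array, and 287 for KO and 719 for WT on the second. The normalized ratios were 0.47 and 0.11, with a mean of 0.29 ± 0.26. The sign was the same on both arrays, and the mean was close to its technical SD.

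Atic, which carries out the closing pair of steps to IMP, stood at −0.35 and −0.28 (mean −0.32 ± 0.05, probe at chr1:71625743-71625802). Of all measured genes, 27.9% had a lower ratio than Atic. As reported, the order from the lowest mean ratio among the 6 IMP-forming enzymes was Paics, Ppat, Pfas, Atic, Gart, Adsl. Ppat and Pfas differed by less than the technical SD of Pfas. The other neighbours in that order differed by more than the technical SD of either, but the order depended on the processing. On the software's processed signals Pfas, at −0.74, was below Paics, at −0.70. With median centring Atic, at −0.81, was below Pfas, at −0.68.

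Impdh2, the main inducible IMP dehydrogenase of lymphocytes and the entry step to GMP, was close to Paics. Its brighter probe gave signals of 5302 for KO and 6877 for WT on the first array and of 2369 for KO and 13481 for WT on the second. The ratios were −0.77 and −0.69, with a mean of −0.73 ± 0.05, or 1.66-fold lower in KO. The other Impdh2 probe gave −0.77 and −0.73 (mean −0.75 ± 0.03). The probes lie at chr9:108467836-108467895 and chr9:108467842-108467901 and share 54 bases, so they read nearly the same stretch and are no independent repeat.

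On the pyrimidine side, the enzymes gave no common direction. Cad, the fused enzyme of the opening steps and a substrate of S6 kinase signalling, has a single probe, which was well above background only in the Cy5 channel of each array, that is for KO on the first and for WT on the second. Its signals were 104 for KO and 64.7 for WT on the first array, and 70.9 for KO and 88.8 for WT on the second, over local backgrounds of 38.5 to 42.5. The brighter channel was therefore the Cy5 one on both arrays, and no genotype had a measured level. The normalized values of 0.57 and −0.04 are given as values of a dim spot. With the scanner software's own processed signals the same spot read 2.37 and −0.18.

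Dhodh, the mitochondrial dehydrogenase that links pyrimidine synthesis to the respiratory chain, stood at 0.04 and 0.01 (mean 0.02 ± 0.03, probe at chr8:112117384-112117443). Of all measured genes, 55.0% had a lower ratio than Dhodh. Before dye normalization the values were 0.38 and −1.53, so loess moved both toward 0.

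Umps, the bifunctional enzyme that yields UMP, gave −0.38 on the first array and −0.99 on the second with its brighter probe. The mean was −0.68 ± 0.44, a technical SD above the 0.33 that is the 95th percentile over all measured genes. Its signals were 1680.1 for KO and 1726 for WT on the first array, and 612 for KO and 3838 for WT on the second. The dimmer Umps probe gave −0.18 and −0.37 (mean −0.27 ± 0.13). The probes, at chr16:33956683-33956742 and chr16:33955215-33955274, do not overlap. Both probes were below 0 on each array, with means of different size.

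**Figure D2:**
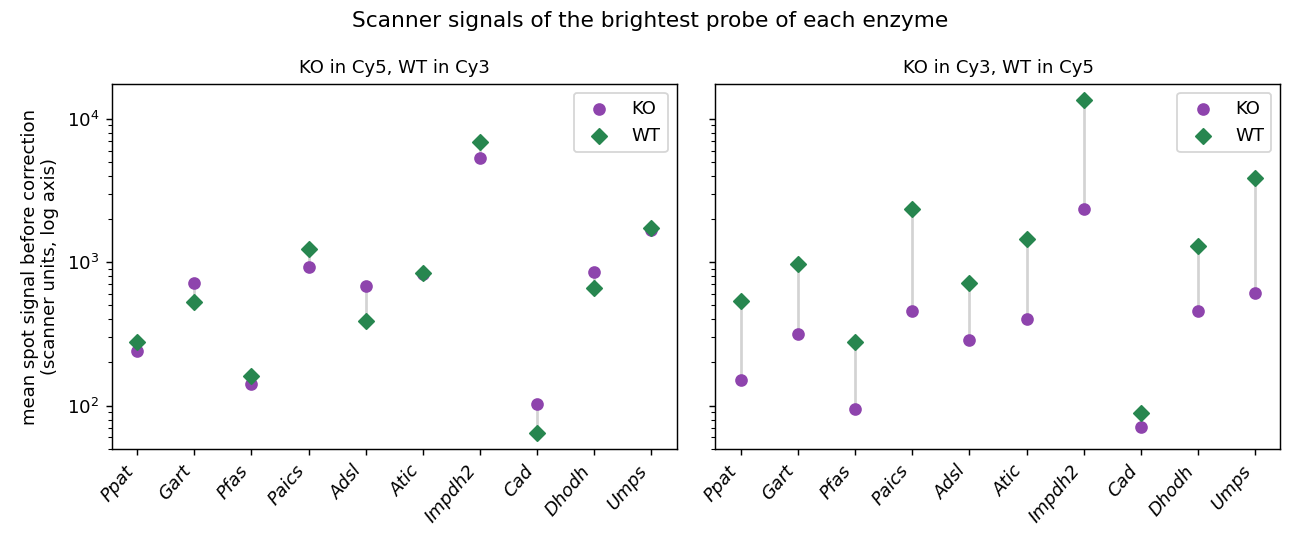
Mean scanner signal of each enzyme's brightest probe before any correction, on a log axis, for KO (circles) and WT (diamonds); the left panel is the array with Cy5 on KO and the right panel the dye swap. WT is the brighter RNA for every enzyme on the right, whereas on the left Gart, Adsl, Cad and Dhodh are brighter in KO, so the ratios rest on the dye normalization.

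The promoters in the RefSeq-derived table of the mouse build GRCm38.p6 were searched, from 250 bases before to 50 bases after each gene's start. The table matched 8 of the 10 genes, all but Pfas and Dhodh. The E-box CACGTG, the sequence bound by Myc with Max, was searched on both strands and occurred in 3 of the 8 windows (37.5%), those of Atic, Paics and Impdh2, and in 7.15% of all 32851 promoter windows. The stretches around it are shown 5′ to 3′ on the plus strand, on which these genes lie, with 12 bases to each side and the E-box in capitals.
Atic: ggacctcggggtCACGTGgggtcgacacgc
Paics: cgcctcggaaagCACGTGgagggacctgct
Impdh2: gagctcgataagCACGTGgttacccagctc
They lie at chr1:71557137-71557166, chr5:76951087-76951116 and chr9:108560314-108560343 of GRCm38.p6, and their E-boxes begin 7, 203 and 110 bases before the start of Atic, Paics and Impdh2. The core of the amino acid response element bound by Atf4 dimers, TGATGNAAN on either strand, was in 0 of the 8 windows and in 3.95% of all. A match describes these letters only, and no binding was measured. The windows compared were not matched for base composition.

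Paics and Ppat lie head to head on opposite strands, with starts 276 bases apart and overlapping 5′ ends in the same table. The E-box listed for Paics lies 479 bases downstream of the start of Ppat, inside that gene. These neighbours had mean log2 ratios of −0.75 and −0.53.

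Around the 10 enzymes, the genes called lower lay mostly in the lists of folate and amino acid supply and of deoxynucleotide synthesis. The counts below stand beside 6.89% lower and 2.45% higher among all measured genes. For the supply of PRPP, 0 of 4 measured genes were called, all 4 lay below 0 on both arrays, and the list median was −0.30. The synthetase gene Prps2 was lowest at −0.54 ± 0.10 and the associated-protein gene Prpsap1 highest at −0.10 ± 0.05. Among the genes from IMP to AMP and GMP, 0 of 5 were called and all 5 lay below 0 (median −0.46), with the GMP synthetase gene Gmps the nearest to 0 at −0.15 ± 0.09.

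The folate pathway that supplies formyl groups for purines and the methyl group of thymidylate had 3 of 9 measured genes at least 2-fold lower and 0 higher (median −0.36). Those 3 encode mitochondrial enzymes: Mthfd2 at −2.66 and −2.67 (6.35-fold lower), Shmt2, which releases a carbon unit from serine, at −1.42 and −1.39 (2.64-fold lower), and Mthfd1l, which yields formate, at −1.36 and −1.03. Mthfd2l, a paralogue of Mthfd2, stood at 0.62 ± 0.26. Taking the median of a gene's probes in place of the brightest left 2 of the 9 lower, and the list median moved to −0.55 when the normexp offset was 1 and to −0.62 on the scanner software's own signals.

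Among genes for the glutamine, aspartate and glycine that donate atoms to the rings, 4 of 8 were lower and 0 higher (median −1.28). Got1, the cytosolic aspartate aminotransferase, was 3.19-fold lower, and Phgdh, the first enzyme of serine synthesis, 2.84-fold lower. Asns and Psat1, of asparagine and serine synthesis, stood at −5.14 and −2.93. Psph, the closing enzyme of serine synthesis, had a mean of −1.06 ± 0.34 without reaching 2-fold on both arrays, and the glutamine synthetase gene Glul stood at −0.02 ± 0.04.

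Downstream, in the list that turns ribonucleotides into DNA precursors, 4 of 8 measured genes were lower by 2-fold or more, 0 were higher, and the median was −1.09. Without the filter on dim probes the median of 9 genes was −0.67. Rrm2, the S-phase subunit of ribonucleotide reductase, stood at −2.24 and −2.45 (5.08-fold lower) and its partner Rrm1 at −1.67 and −1.63 (3.14-fold lower). Dut, which clears dUTP, was 2.84-fold lower. The kinase gene Dtymk at −0.67 ± 0.17 and the deaminase gene Dctd at −0.09 ± 0.20 were the lowest and highest not called. Whether these lists differ from the de novo enzymes was not tested, since there was 1 extract per genotype.

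CTP synthesis and the nucleotide kinases had 0 of 7 called (median −0.07), with the CTP synthase gene Ctps at −0.97 ± 0.10 and its paralogue Ctps2 at 0.53 ± 0.06. In the salvage list 1 of 14 was lower and 0 higher (median −0.32), close to the 6.89% lower among all measured genes. The count lower in salvage was 3 on the first array alone and with a normexp offset of 1. It was 2 on the second array alone, with the processed signals and without background subtraction. The gene lower as reported was Tk1, the thymidine kinase of dividing cells, at −1.14 ± 0.02, while the deoxycytidine kinase gene Dck stood at −1.09 ± 0.19 and the mitochondrial thymidine kinase gene Tk2 at 0.57 ± 0.15. In the breakdown list 1 of 9 was lower, the xanthine dehydrogenase gene Xdh at −1.89 ± 0.04, and 0 higher, with the phosphatase genes Nt5m at −0.41 ± 0.06 and Nt5e at 0.60 ± 0.15 at the ends of the rest. Of 3 measured nucleoside transporter genes 0 were called, from Slc28a2 at −0.63 ± 0.09 to Slc29a3 at 0.17 ± 0.19.

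**Figure D3:**
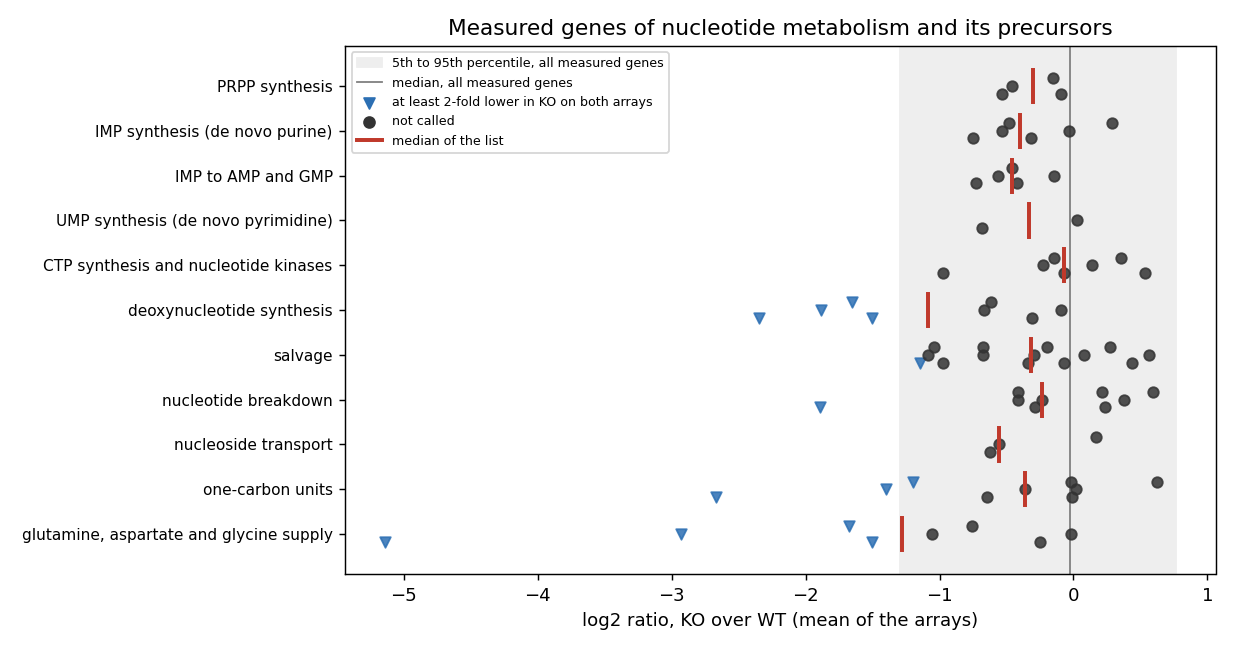
Log2 ratio KO over WT (mean of the arrays) of each measured gene in lists of nucleotide metabolism and its precursors, with triangles for genes at least 2-fold lower on both arrays, red bars for list medians and a grey band from the 5th to the 95th percentile of all measured genes (−1.30 to 0.76). The genes of IMP and UMP synthesis stay inside the band, whereas triangles lie to its left in the deoxynucleotide, breakdown, one-carbon and amino acid lists.

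Of 9 genes that regulate these pathways, 1 was lower and 0 higher, but 1 was higher under 6 of the 11 other ways of processing, and 2 were lower on the second array alone. The gene lower as reported was the targeted Lamtor1, at −1.97 and −1.93 (3.86-fold lower). The sources used here do not say which part of it was deleted, so its probe may not check the labels. Mycn stood at 1.12 ± 0.23 and Atf4 at −1.19 ± 0.40, neither 2-fold apart on both arrays. Myc, named here after its values were seen, stood at −0.37 and 0.00 (mean −0.18 ± 0.26).

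The extracts differed in markers of other cells as well. Among 8 markers of CD4 T cells all were measured, 3 were lower (Trat1, Cd4 and Cd5) and 0 higher. The rest were not called, with Cd3d at −0.79, Cd3g at −0.49, Zap70 at −0.31, Cd3e at 0.09 and Lck at 0.16. Among 9 markers of CD8 T and NK cells 8 were measured, and 4 were higher (Klrb1c, Klrd1, Klrc1 and Tyrobp) and 0 lower. Over all measured genes 2.45% were higher and 6.89% lower. Klrb1c and Tyrobp were dim in WT. Of the CD8 T and NK cell markers not called, Cd8b1 stood at −0.55, Prf1 at 0.41, Cd8a at 0.67 and Eomes at 0.75. The normalized intensity of the CD8 T and NK cell markers summed to 2549 to 2721 in KO and 1152 to 1208 in WT. That of the CD4 T cell markers summed to 52603 to 53604 in KO and 65975 to 68454 in WT. Of 8 myeloid markers 4 were measured and 0 called, with log2 ratios from 0.40 (Csf1r) to 0.82 (Siglech), and Lyz2 was dim in WT. Their sums were 32629 to 32702 in KO and 18724 to 19261 in WT. Of 6 B cell markers 1 was measured, Cd79b, not called, at 191 to 209 in KO and 121 to 140 in WT. Such sums add probes of unlike brightness, so the brightest weigh most and the sums are no cell shares. Ncr1, Cd79a, Ms4a1, Pax5, Blnk, Itgax, Cd14, Adgre1 and Flt3 were among the markers not measured. The part of these cells in the enzymes' ratios was not tested, and fewer cells of a type and less RNA per cell cannot be told apart in bulk RNA.

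The choice of dye normalization moved the ratios of the enzymes. With median centring in place of loess, Paics stood at −1.28, Impdh2 at −1.34 and Umps at −1.24, and Adsl turned to −0.13, Dhodh to −0.47 and Gart to −0.48, while the median of all measured genes moved from −0.02 to −0.37. Relative to that median, Gart stood at −0.11, Dhodh at −0.10 and Pfas at −0.31, against −0.46 for Pfas as reported. With median centring and on the same scale, Paics stood at −0.90, Impdh2 at −0.96, Umps at −0.87, Ppat at −0.49, Atic at −0.44 and Adsl at 0.24. None of the 9 was 2-fold apart on both arrays there either, since the first array gave −0.57, −0.54 and −0.20 for Paics, Impdh2 and Umps and the second −1.98, −2.14 and −2.28.

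**Figure D4:**
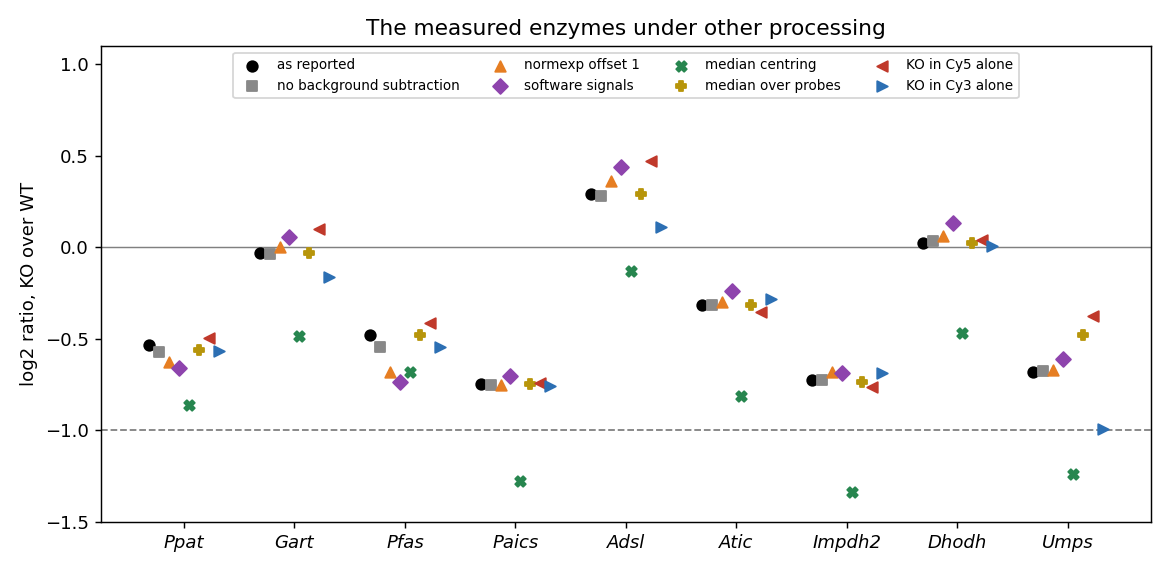
Log2 ratio KO over WT of the 9 measured enzymes as reported (black circles) and under 7 other ways of processing; the single-array values are arrowheads and the dashed line marks 2-fold lower. Ppat, Pfas, Paics, Atic, Impdh2 and Umps lie below 0 under each one drawn, and the crosses for median centring are lowest for each enzyme except Pfas.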

How the data were processed

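RNA from KO and WT CD4+ T cells was compared on 2 arrays with exchanged dyes, 400 ng of each cRNA being hybridised at 65 °C for 17 h per the labels. The deposited scanner files hold raw and processed intensity values from Agilent Feature Extraction, version 10.7.3.1 per the file headers and 10.5.1.1 per the submitters' processing notes. The deposited series matrix holds log10 ratios, equal to the software's own on all 44397 spots within 1e-08.

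Background was removed from mean signals by normexp (offset 50), and dyes were balanced by loess with control spots at weight 0 (limma 3.58.1 in R 4.3.3; figures with Python 3.11.15, matplotlib 3.10.9). Outlier spots (206 and 214) were dropped, none of them a probe of the enzymes. Spots of a probe were averaged, and the brightest probe stood for a gene. An offset of 50 shrinks ratios of dim probes, and loess assumes that most genes do not differ at each brightness. Between 43.7% and 51.7% of spots were well above background, and no enzyme's probe was saturated. The single extract per genotype limits the precision, and the dye swap repeats only the technical steps. The steps were tested on simulated data.

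The enzymes, lists and markers were chosen with earlier results of these data known. Named are all 10 enzymes, the called genes of each other list, and its highest and lowest not called, except some genes that are not reported here. Cross-hybridisation was not checked.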

Additional observations from a re-analysis of the deposited data

How the results depend on the processing

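No test over extracts, paired or not, was possible with 1 extract per genotype. The dye-swapped arrays were averaged as a technical pair. All 11 alternatives were planned. Under each of them 0 enzymes were called higher and 0 lower, and Ppat, Pfas, Paics, Atic, Impdh2 and Umps stayed below 0. Several of the 11 could not alter this. Both other filters on dim probes and keeping outlier spots left the ratios of the measured enzymes unchanged. The series matrix repeats the processed signals, and the single arrays repeat the values given above for each array. Gart kept its sign in 7 of the 11, and Adsl and Dhodh in 10. The median of the enzymes was −0.81 with median centring, −0.63 with a normexp offset of 1, −0.61 with either the series matrix values or the signals processed by the scanner software, and −0.55 to −0.38 on single arrays. Over all measured genes, 365 were higher and 1024 lower. With the processed signals and the series matrix values 866 were higher and 1613 lower, with an offset of 1 608 were higher, and with median centring 111 were higher and 881 lower, so that the share of higher calls went from 26.3% to 11.2%. On single arrays 427 to 555 were higher and 1173 to 1185 lower. The deoxynucleotide list had 3 of 5 genes lower, with a median of −1.51, when a probe had to be well above background in both RNAs, and a median of −0.67 with no filter on dim probes. With no such filter the medians of the transport and breakdown lists went from −0.56 and −0.23 to −0.09 and −0.03, and the breakdown median was −0.01 with the filter in both RNAs. The breakdown list had 2 genes lower with the processed signals, and the CTP and kinase list 1 lower with KO in Cy3 alone. Median centring took the medians of the PRPP list to −0.74, of IMP to AMP and GMP to −0.95, of CTP and kinases to −0.58, of salvage to −0.82, of breakdown to −0.37 and of transport to −1.06. It also took the median of all measured genes to −0.37. Relative to that, these lists stood at −0.36, −0.58, −0.20, −0.45, 0.01 and −0.68 in the same order. As reported, they stood at −0.28, −0.43, −0.04, −0.29, −0.21 and −0.53 relative to all measured genes. The median of the enzymes on this scale was −0.44 with median centring and −0.46 as reported. The causes were not tested. Dim spots limit Cad, which has only a reading near background.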

Other observations

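Some enzymes of the same or a like reaction stood apart in these extracts, and others lay side by side. The pairs were picked after their values were seen and are given as values. Ctps stood at −0.97 ± 0.10 and Ctps2 at 0.53 ± 0.06. Tk1, the cytosolic thymidine kinase, stood at −1.14 ± 0.02 and the mitochondrial Tk2 at 0.57 ± 0.15. Dck, the cytosolic deoxycytidine kinase, stood at −1.09 ± 0.19 and the mitochondrial Dguok at 0.43 ± 0.19. Mthfd2 stood at −2.67 and Mthfd2l at 0.62 ± 0.26. Side by side lay Impdh1 at −0.56 ± 0.07 and Impdh2 at −0.73 ± 0.05, Prps1 at −0.46 ± 0.15 and Prps2 at −0.54 ± 0.10, and Adss at −0.46 ± 0.28 and Adssl1 at −0.42 ± 0.18. Within folate metabolism the cytosolic trifunctional Mthfd1 stood at −0.02 ± 0.02, against the mitochondrial Mthfd1l at −1.19 ± 0.23. The salvage gene Hprt, which returns hypoxanthine and guanine to nucleotides, stood at −0.79 and −1.16.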
